A study of Mus musculus with 1037 samples.

Results

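The genes described here are 10 genes of transforming growth factor beta (TGFβ) signalling among the 55335 genes counted in single cells of the mouse hair follicle. They were chosen by name and found through their Ensembl identifiers: the ligand genes Tgfb1, Tgfb2 and Tgfb3, the receptor genes Tgfbr1, Tgfbr2 and Tgfbr3, the intracellular genes Smad2, Smad3 and Smad7, and Tgfbi. Each of the 10 matched 1 row of the counts. RNA of single cells was copied and amplified with Smart-seq2, a method that reads fragments along the whole transcript.

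TGFβ ligands are secreted bound to a latent propeptide and must be released before they act. The active ligand brings together TGFBR2 and TGFBR1, a pair of receptors with serine/threonine kinase activity, and TGFBR3 (betaglycan) presents ligand to them, TGFβ2 above all. The receptors phosphorylate SMAD2 and SMAD3, which enter the nucleus with SMAD4, while SMAD7 is induced by the pathway and blocks the receptors. TGFBI is a secreted matrix protein named for its induction by TGFβ. In the hair follicle the pathway is known for driving the growing follicle into regression (catagen), and for activating stem cells at the next growth phase.

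All cells came from wild-type skin, and cells of several mice were pooled before sorting, with no animal named. The cells were hair follicle epithelial cells sorted as negative for Sca1 and for the lineage markers CD31, CD117, CD140a and CD45. The outer root sheath (ORS) was then taken by CD34 and Itga6, with annexin V and DAPI separating alive from apoptotic (apop) cells. At late anagen (AnaVI, day 15) the sorts were LOS, labelled as lower ORS, and MOS and UOS, which share the label upper-middle ORS. At CatVI (day 17) cells labelled upper ORS were sorted on 6 plates as Phago or NonPhago and as alive or apop. At CatVII (day 18) cells with the same region label were sorted as OSalive and OSapop. The letter f in the CatVI titles is not explained.

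Only cells in which 2000 or more genes were detected entered the values, 463 of 1035. They were 39 cells of LOS, 38 of MOS, 19, 9, 15 and 14 of plates 1, 2, 5 and 6, and 92 of OSapop, with the rest from UOS and OSalive. The sorts and plates other than UOS held 351 of the 463, and those other than OSalive held 338. Plates 3 and 4 (NonPhago alive) held 0 such cells. The kept cells summed to between 1840012 counts on plate 6 and 287377663 in OSalive. Each sort or plate is 1 sample, so no value below has a biological replicate, no test was made, and stage, sort, plate and library batch cannot be told apart. A level is the count of a gene per 1000000 counts of the sort (CPM) with an exact 95% Poisson interval. A single gene without a symbol held 65.5% of the counts of the kept cells, and genes with a symbol held from 19.3% in OSalive to 28.7% on plate 2, so that a CPM value is low beside one taken over named genes. A ratio is a log2 ratio of 2 such levels with an exact 95% binomial interval. Reads carry no molecular identifiers, and both intervals cover counting error only. A ratio is past 2-fold when its size is 1 or more on the log2 scale with at least 100 counts over both groups.

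Markers of ORS keratinocytes (9 of 9 in each of the 9 sorts and plates) summed to between 1139.7 CPM on plate 2 and 6828 CPM on plate 5. LOS stood apart from the other AnaVI sorts. Its keratinocyte markers summed to 1493 CPM against 4482 CPM in MOS and 4273 CPM in UOS, while 8 of 8 fibroblast and dermal papilla markers summed to 1408 CPM in LOS against 14.7 in MOS and 355 in UOS. In LOS, 4 of 4 endothelial markers summed to 66.4 CPM and 5 of 5 melanocyte markers to 158.4 CPM, against 11.1 and 12.5 CPM in UOS. The deepest LOS cell alone held 26.9% of the counts of LOS and had the most counts of 8 of the 10 genes. For each of these 8 genes another LOS cell had a higher CPM. In what follows, the highest cell of a gene is the one with the most counts of it. The deepest LOS cell had 11424 detected genes, 407 CPM of keratinocyte markers and 231.8 CPM of endothelial markers. Markers of immune, fibroblast, endothelial and melanocyte cells together exceeded those of keratinocytes in 6 cells of LOS, 4 of UOS, 2 of plate 1, 3 of plate 2, 2 of OSalive and 1 of OSapop. UOS, the reference of 4 comparisons, stood apart in 6 markers of the inner root sheath and matrix, which summed to 849.7 CPM there, 318.8 CPM in LOS, 35 CPM in MOS and 47.3 CPM in OSalive. In UOS 4 cells were richer in these than in keratinocyte markers and held 93% of these counts, and without them the sum was 64.7 CPM. Without such cells in any group, 6, 7, 5 and 4 of the 10 genes were past 2-fold in LOS, MOS, CatVI and OSalive against UOS, where with every cell they were 6, 6, 6 and 4. The part of these cells in the results was not tested beyond leaving them out.

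**Figure D1:**
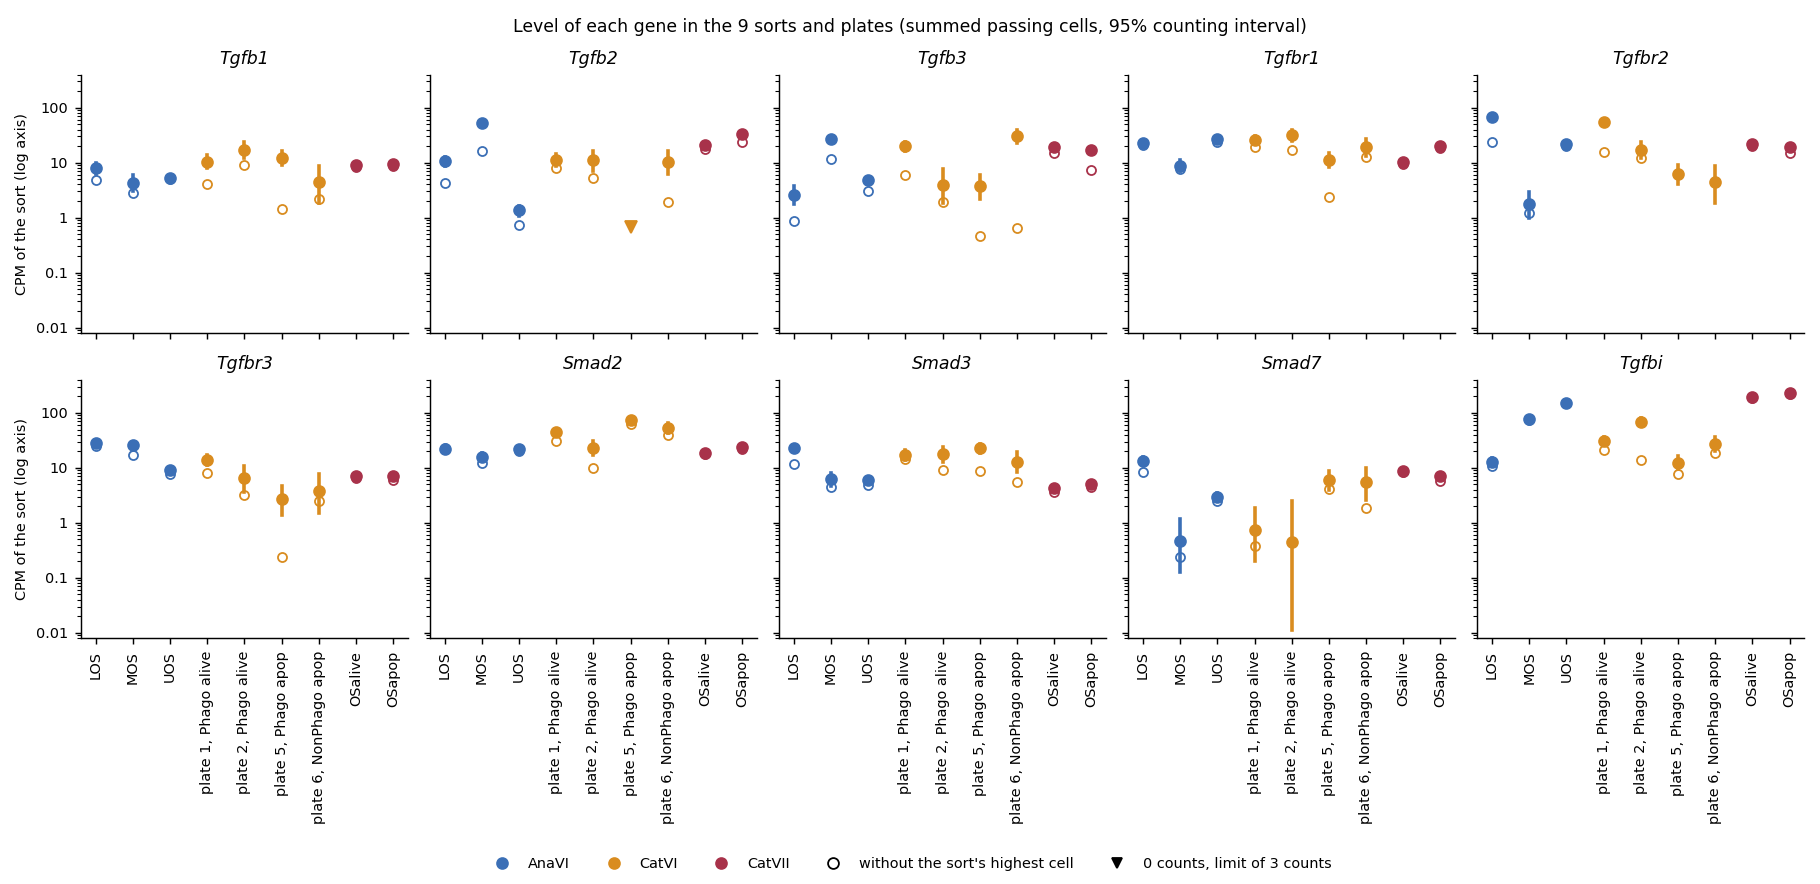
CPM (log axis) of each of the 10 genes in the 9 sorts and plates, coloured by stage. Filled points are sums over the passing cells with the exact 95% Poisson interval, open points leave out the cell with the most counts of the gene, and the triangle marks the limit of 3 counts where no count was found. Tgfb2 ran from 0 counts on plate 5 to 52.4 CPM in MOS, and Tgfbi was highest in OSapop, at 231.6 CPM.

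Of the ligands, Tgfb2 and Tgfb3 were low in UOS and higher in MOS and in both CatVII sorts, whereas Tgfb1 varied least. Tgfb2 (GRCm39 chromosome 1, 186354985 to 186438294, minus strand) encodes the ligand that depends most on betaglycan. At AnaVI its level was 10.6 CPM in LOS (8.77 to 12.8), 52.4 CPM in MOS (47.7 to 57.5) and 1.35 CPM in UOS (1.09 to 1.65). On the CatVI plates it was 11.1 CPM on plate 1, 11 CPM on plate 2 and 10.3 CPM on plate 6. Plate 5 held 0 counts, with an interval that reached 0.821 CPM. At CatVII it was 20.5 CPM in OSalive (20 to 21.1) and 33.1 CPM in OSapop (31.8 to 34.5). The intervals of UOS and of each of the other sorts and plates with a count did not overlap, and those of LOS and plates 1, 2 and 6 did overlap one another.

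The log2 ratio of Tgfb2 to UOS was 5.28 in MOS (4.96 to 5.62), 2.98 in LOS (2.57 to 3.39), 2.47 in CatVI (2.05 to 2.89) and 3.93 in OSalive (3.63 to 4.24). Few cells carried these counts. A single MOS cell held 71.9% of the Tgfb2 counts of its sort, and without the highest cell of each group the MOS ratio was 4.44. In LOS 1 cell held 70.2%, and the ratio of the means of CPM per cell was only 0.39 there, against 2.80 in OSalive. OSalive was 15.3-fold above UOS but below MOS, with a log2 ratio to MOS of −1.35 (−1.49 to −1.21). Without the highest cell of each group that ratio was 0.11.

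The share of cells with a Tgfb2 count was taken after each cell was thinned to 50000 counts, because sorts differed in depth. All but 1 of the UOS cells and all but 1 of the OSalive cells reached that depth. The share was 3.60% of the UOS cells (0.99 to 8.97), 18.8% of 32 MOS cells (7.21 to 36.4), 13.7% of the OSalive cells (8.19 to 21) and 18.8% of 85 OSapop cells (11.2 to 28.8). Without thinning the shares were 8.04%, 21.1%, 23.2% and 26.1% of all kept cells. On plate 5, 0 of 15 cells had a count at either depth.

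Tgfb3 (chromosome 12, 86102756 to 86126301, minus strand) encodes the third ligand of the family. Its level was 2.61 CPM in LOS (1.74 to 3.78), 27 CPM in MOS (23.7 to 30.8) and 4.87 CPM in UOS (4.36 to 5.43). The 4 CatVI plates gave 19.7, 3.97, 3.78 and 29.9 CPM on plates 1, 2, 5 and 6, so the 2 plates with the same label, 1 and 2, differed 4.96-fold. OSalive had 19.3 CPM (18.8 to 19.9) and OSapop 17.3 CPM (16.3 to 18.3). In OSapop 1 cell held 59.2% of the Tgfb3 counts, and without it the level was 7.33 CPM. On plate 6 a single cell held 98.2% of the counts and on plate 1 a single cell held 71.3%. The log2 ratio to UOS was 2.47 in MOS (2.22 to 2.72) and 1.99 in OSalive (1.83 to 2.15), and −0.90 in LOS (−1.51 to −0.34), which did not reach 2-fold.

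Tgfb1 encodes the ligand most widely made across tissues. It was found in 46.4% of the kept cells, against 19% for Tgfb2 and 19.7% for Tgfb3. Its level was 7.84 CPM in LOS, 4.33 CPM in MOS and 5.31 CPM in UOS, then 10.4, 17.2, 12.2 and 4.35 CPM on plates 1, 2, 5 and 6, and 8.97 and 9.39 CPM in OSalive and OSapop. Of these, MOS, UOS and plate 6 had overlapping intervals, as had LOS, plate 1, OSalive and OSapop. The log2 ratio of CatVI to UOS was 1.09 (0.81 to 1.36), and 0.68 without the highest cell of each group, where the gene no longer reached 2-fold. On plate 5 a single cell held 89.1% of the Tgfb1 counts.

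Per kilobase of the canonical transcript, the 3 ligand genes summed to 3.83 CPM per kb in UOS, the lowest value, and to 18.5 CPM per kb in MOS, the highest. Without the highest cell of each ligand gene the MOS sum was 7.16 CPM per kb, below OSalive at 10.8 and OSapop at 10.1, so the rank of MOS rested on single cells. Plate 5, at 0.76 CPM per kb, was then the lowest. Tgfb1 made up 62.6% of that sum in UOS and 10.6% in MOS, where Tgfb2 made up 54.2%, or 43% without the highest cells. In OSalive the shares were nearly even, at 32.1%, 31.1% and 36.9% for Tgfb1, Tgfb2 and Tgfb3. In OSapop they were 28.8%, 43% and 28.2%.

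**Figure D2:**
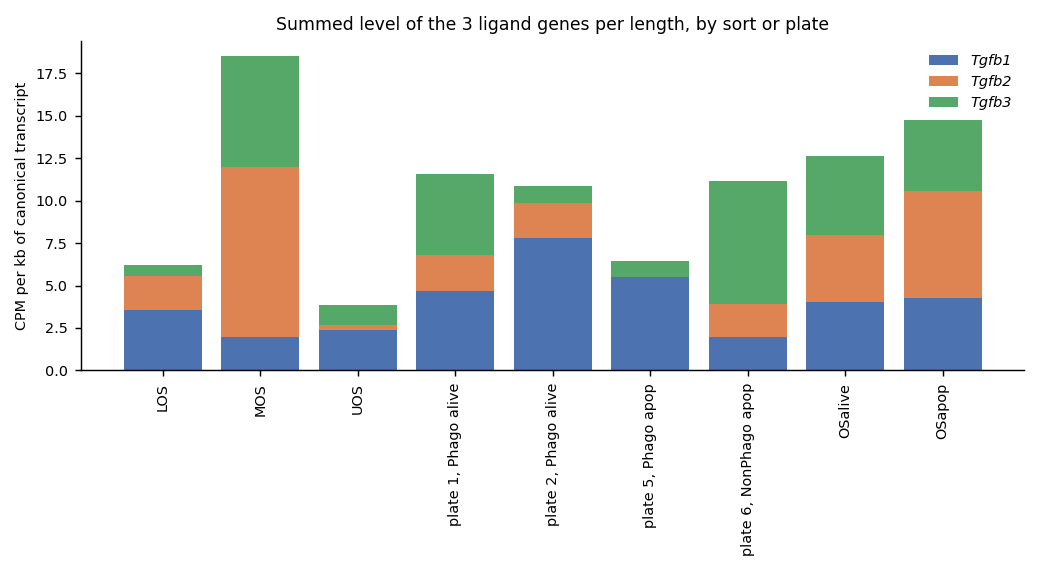
Stacked bars of the levels of Tgfb1, Tgfb2 and Tgfb3 in CPM per kilobase of canonical transcript for each of the 9 sorts and plates, without error bars. UOS has the lowest bar, at 3.83 CPM per kb, and most of it is Tgfb1, while MOS has the highest, at 18.5 CPM per kb, and most of it is Tgfb2. Without the highest cell of each gene, which the bars include, MOS falls to 7.16 CPM per kb.

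In MOS, UOS, OSalive and OSapop, Tgfb2 was seen in a larger share of the cells with a Tgfb3 count than of those without. In thinned OSalive cells Tgfb2 was seen in 10 of 24 cells with a Tgfb3 count (41.7%, exact 95% interval 22.1 to 63.4) and in 7 of 100 cells without one (2.86 to 13.9). In OSapop it was seen in 7 of 11 (63.6%, 30.8 to 89.1) and in 9 of 74 (12.2%, 5.71 to 21.8), and in UOS in 3 of 10 with a Tgfb3 count and 0.99% of those without. In MOS it was 3 of 5 with and 3 of 27 without. The order was the other way in LOS, at 0 of 3 with and 2 of 20 without, and on plate 1, at 1 of 6 and 3 of 12. In MOS, in OSalive and in OSapop, 1 deep cell had the most counts of both genes, although the highest CPM of Tgfb2 in each of these sorts was in another cell.

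At CatVII a larger share of the cells without a count of Cd34, the gene of the surface marker used in the sort, had a count of these ligand genes. In thinned OSalive cells Tgfb2 was seen in 4 of 73 cells with a Cd34 count (5.48%, 1.51 to 13.4) and in 13 of 51 without one (25.5%, 14.3 to 39.6). Tgfb3 was seen in 7 of the 73 (9.59%, 3.94 to 18.8) and in 17 of the 51 (33.3%, 20.8 to 47.9). In OSapop the shares were 11.3% of 53 cells and 31.3% of 32 cells for Tgfb2, with overlapping intervals (4.27 to 23 and 16.1 to 50), and 5.66% and 25% for Tgfb3 (1.18 to 15.7 and 11.5 to 43.4). Without thinning, Tgfb2 was seen in OSalive in 13 of 85 cells with a Cd34 count and 16 of 40 without, and in OSapop in 12 of 63 and 12 of 29. Tgfb3 was then seen in OSalive in 14 of 85 and 18 of 40, and in OSapop in 6 of 63 and 11 of 29. In thinned MOS cells, Tgfb2 was seen in 0 of 14 cells with a Cd34 count and in 6 of 18 without. In UOS, where 4 of the thinned cells had a Tgfb2 count, these were 3 of 85 cells with a Cd34 count and 1 of 26 without.

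**Figure D3:**
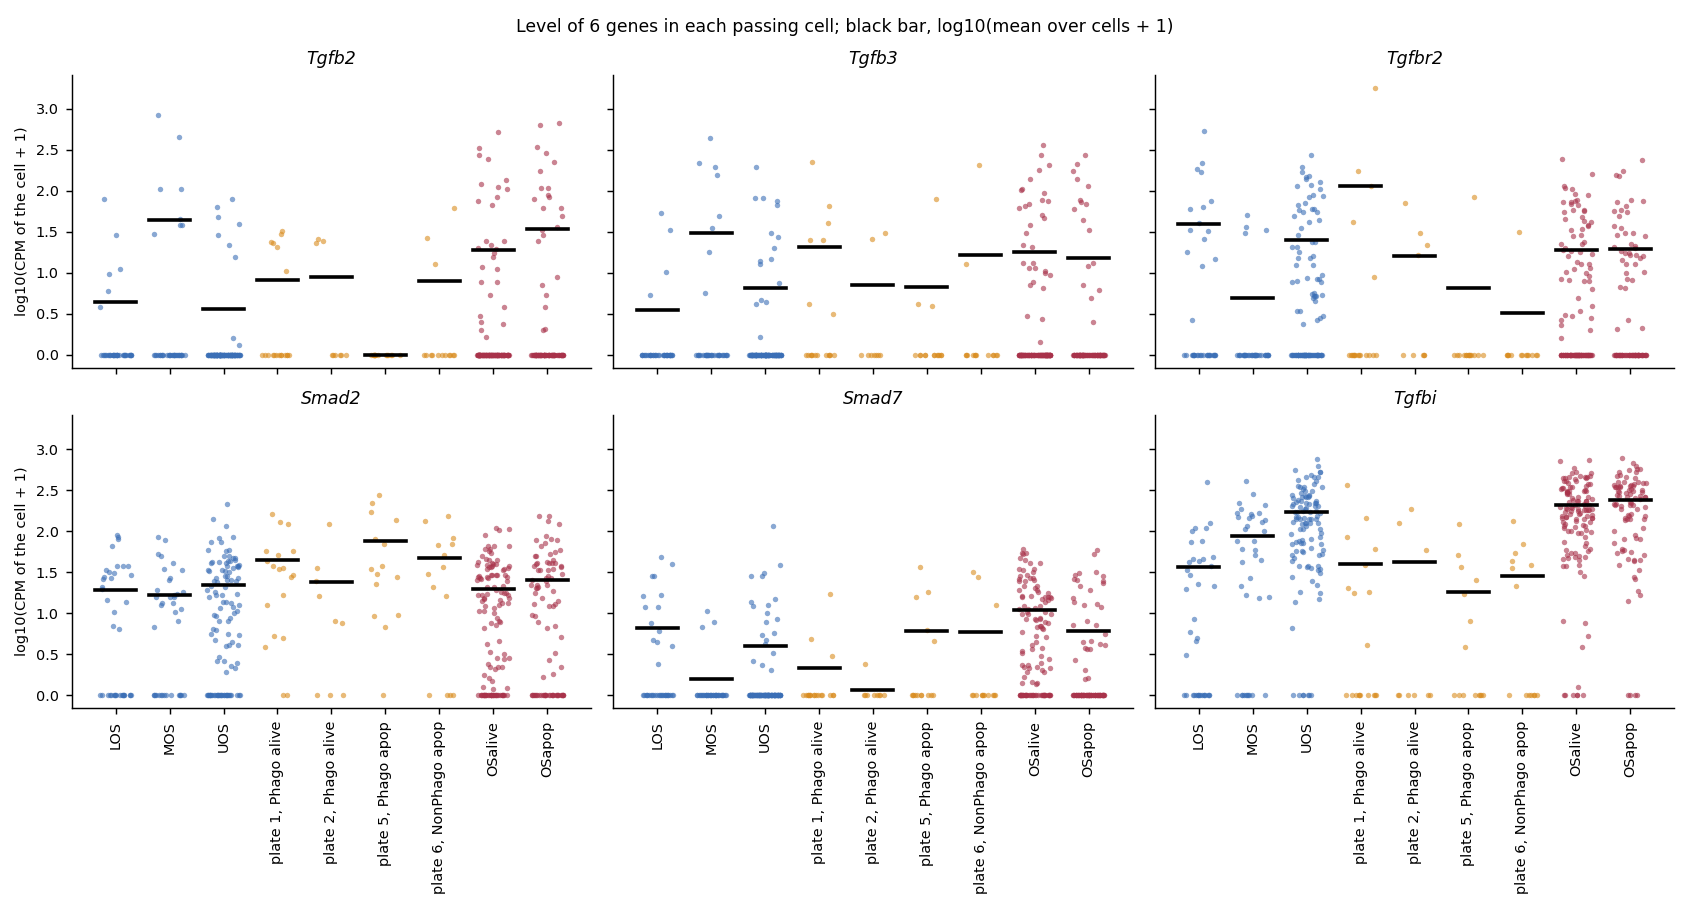
log10(CPM + 1) of Tgfb2, Tgfb3, Tgfbr2, Smad2, Smad7 and Tgfbi in each passing cell, by sort or plate and coloured by stage, with a black bar at log10(mean + 1). Points at 0 are cells without a count. Tgfb2 rests on a few cells in each sort, with 8.04% of the cells in UOS, whereas 93.8% of the UOS cells have a Tgfbi count.

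Of the receptors, Tgfbr2 was lowest in MOS, Tgfbr1 was lower in MOS and OSalive than in UOS, and Tgfbr3 was higher in LOS and MOS than in UOS. Tgfbr2 (chromosome 9, 115913361 to 116004800, minus strand) encodes the receptor that binds ligand first. Its level was 66.5 CPM in LOS (61.7 to 71.6), 1.76 CPM in MOS (0.98 to 2.90) and 21.8 CPM in UOS (20.7 to 22.9). On the CatVI plates it was 55.4, 17.2, 6.23 and 4.35 CPM on plates 1, 2, 5 and 6. OSalive and OSapop, at 21.9 CPM (21.3 to 22.4) and 18.9 CPM (17.9 to 19.9), lay beside UOS.

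The 2 highest Tgfbr2 levels rested on 1 cell each. In LOS the deepest cell held 73.8% of the Tgfbr2 counts, and without that cell the level was 23.9 CPM and the log2 ratio to UOS was 0.13 in place of 1.61 (1.48 to 1.74). On plate 1 a cell with 1790.2 CPM of Tgfbr2 held 73% of the counts. That cell had 1903 CPM of endothelial markers and 185.5 CPM of keratinocyte markers. Without the 2 cells of plate 1 that were richer in markers of other cell types, Tgfbr2 was 13.3 CPM there and Tgfbr3 was 1.90 CPM in place of 14 CPM. Under that exclusion the CatVI ratio to UOS was −1.26 for Tgfbr2, against 0.31 (0.14 to 0.47) with every cell. The low level in MOS did not rest on 1 cell: 4 of 38 cells had a count, against 50% of the cells in UOS, and the log2 ratio was −3.63 (−4.47 to −2.91). At equal depth the shares were 12.5% of 32 MOS cells (3.51 to 29) and 27% of the UOS cells (19 to 36.3), with intervals that overlapped.

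Tgfbr1 encodes the receptor that phosphorylates the SMADs. Its level was 22.9 CPM in LOS, 8.78 CPM in MOS (6.90 to 11) and 26.4 CPM in UOS (25.2 to 27.7), then 25.5, 31.4, 11.1 and 19 CPM on plates 1, 2, 5 and 6. OSalive had 10.2 CPM (9.81 to 10.5) and OSapop 20.1 CPM (19.1 to 21.1). The log2 ratio to UOS was −1.59 in MOS (−1.94 to −1.26) and −1.38 in OSalive (−1.46 to −1.29). The mean of CPM per cell gave −0.44 for MOS, within 2-fold. No single cell held more than 14.7% of the Tgfbr1 counts in MOS or 11.2% in UOS.

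Tgfbr3 encodes betaglycan. Its level was 28.7 CPM in LOS (25.6 to 32.1), 26.3 CPM in MOS (23 to 30) and 9.01 CPM in UOS (8.32 to 9.75). On plates 1, 2, 5 and 6 it was 14, 6.62, 2.67 and 3.80 CPM, and in OSalive and OSapop 7.18 and 7.01 CPM. The log2 ratio to UOS was 1.67 in LOS (1.47 to 1.87) and 1.48 without the deepest LOS cell, and it was 1.55 in MOS (1.32 to 1.77). At equal depth, 69.6% of 23 LOS cells (47.1 to 86.8), 40.6% of 32 MOS cells (23.7 to 59.4) and 20.7% of the UOS cells (13.6 to 29.5) had a count. LOS and UOS did not overlap in this share.

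Tgfbr1 and Tgfbr2, whose products act as a pair, were found together about as often as the product of their shares gives. Without thinning both were seen in 32.1% of the UOS cells, 24% of the OSalive cells and 22.8% of the OSapop cells. The products were 31.25%, 24.9% and 24.2%. In thinned cells both were seen in 9 UOS cells, where the product of their shares gives 12.2 cells. In OSalive both were seen in 8 cells against 8.95, and in OSapop in 11 of 85 cells against 9.21.

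Of the intracellular genes, Smad2 stayed within 2-fold of UOS in LOS, MOS and OSalive and was higher on 3 of the 4 CatVI plates. Smad2 encodes a receptor-activated SMAD. Its level was 21.9 CPM in LOS, 15.8 CPM in MOS and 22.4 CPM in UOS (21.2 to 23.5), 45.4, 23.4, 73.4 and 53.3 CPM on plates 1, 2, 5 and 6, and 18.6 and 24.2 CPM in OSalive and OSapop. The log2 ratio of CatVI to UOS was 1.21 (1.08 to 1.34), and 1.19 without the highest cell of each group. At equal depth 80% of 15 cells on plate 5 (51.9 to 95.7) had a count, against 45% of the UOS cells (35.6 to 54.8), with intervals that overlapped. On plates 1, 2 and 6 the shares were 72.2%, 50% and 66.7%. With only the plates labelled alive the ratio was 0.80, within 2-fold.

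Smad3 encodes the other receptor-activated SMAD, which binds DNA directly. Its level was 22.9 CPM in LOS (20.1 to 25.9), 6.20 CPM in MOS and 6.09 CPM in UOS (5.52 to 6.70). It was 17, 17.7, 22.7 and 13 CPM on plates 1, 2, 5 and 6, all above the UOS interval. OSalive had 4.25 CPM (4.01 to 4.49), below that interval, and OSapop 5.19 CPM (4.68 to 5.74), which overlapped it. The order changed with the mean of CPM per cell, at 4.56 in OSalive and 8.42 in OSapop against 4.16 in UOS. The log2 ratio to UOS was 1.60 in CatVI (1.37 to 1.82) and 1.91 in LOS (1.68 to 2.14). The deepest LOS cell held 61.6% of the Smad3 counts of LOS, and without that cell the ratio was 0.98.

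Smad7 encodes the inhibitory SMAD, a target of the pathway that acts as its brake. Its level was 13.5 CPM in LOS (11.4 to 15.9), 0.47 CPM in MOS (0.13 to 1.20) and 3.01 CPM in UOS (2.62 to 3.46). Plates 1 and 2, both Phago alive, had 0.73 CPM from 4 counts and 0.44 CPM from 1 count, while plates 5 and 6, both apop, had 6.01 CPM and 5.43 CPM. OSalive had 8.91 CPM (8.57 to 9.26) and OSapop 7.05 CPM (6.45 to 7.69). The log2 ratio to UOS was 1.56 in OSalive (1.36 to 1.78), 2.17 in LOS (1.85 to 2.48) and −2.69 in MOS (−4.58 to −1.31), where only 4 counts were found. At equal depth 25% of the OSalive cells (17.7 to 33.6) and 6.31% of the UOS cells (2.57 to 12.6) had a Smad7 count. The share in MOS was then 6.25% of 32 cells (0.77 to 20.8), beside that of UOS. From the thinned counts the MOS ratio was −0.67, within 2-fold. In UOS the highest cell held 17% of the Smad7 counts and in OSalive 7.81%, so neither level rested on 1 cell. In LOS 1 cell held 54.5%, the level without it was 8.42 CPM, and the ratio of the means of CPM per cell was 0.91, within 2-fold.

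Tgfbi (chromosome 13, 56757336 to 56787375, plus strand) was the highest of the 10 genes in CPM in UOS, MOS and both CatVII sorts, and the lowest values were in LOS and on plate 5. Its level was 12.7 CPM in LOS (10.6 to 15), 77.5 CPM in MOS (71.7 to 83.6) and 154.04 CPM in UOS (151.1 to 157.01). On plates 1, 2, 5 and 6 it was 31.4, 68, 12.5 and 27.2 CPM, each below UOS. In OSalive it was 191.5 CPM (189.9 to 193.1) and in OSapop 231.6 CPM (228.2 to 235.2). Per kilobase Tgfbi was also highest in UOS, at 56.1 CPM per kb, where Smad2 was next among the 10 at 13.6 CPM per kb on its canonical transcript of 1645 bases, or 2.33 CPM per kb on its longest of 9595 bases.

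The log2 ratio of Tgfbi to UOS was −3.60 in LOS (−3.86 to −3.36), −0.99 in MOS (−1.11 to −0.88), −2.33 in CatVI (−2.47 to −2.19) and 0.31 in OSalive (0.28 to 0.34). A single cell held at most 4.02% of the Tgfbi counts in UOS and 16.2% in LOS. On plates 1, 2, 5 and 6 it held 39%, 85.7%, 41.1% and 36%, and without that cell plate 2 fell from 68 to 14.2 CPM. At equal depth 47.8% of 23 LOS cells (26.8 to 69.4), 68.8% of 32 MOS cells (50 to 83.9) and 90.1% of the UOS cells (83 to 94.9) had a count. The 4 plates ran from 33.3% on plate 5 to 41.7% on plate 6, and OSalive and OSapop had 91.9% and 92.9%. The 3 AnaVI sorts stood in the order LOS, MOS, UOS in level, with no overlap of the CPM intervals.

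Counted over the 10 genes, the AnaVI comparison of LOS with UOS had 5 genes past 2-fold higher (Tgfb2, Tgfbr2, Tgfbr3, Smad3 and Smad7) and 1 lower (Tgfbi). Among 11473 genes with enough counts, 14.1% were past 2-fold higher and 14.3% lower. The median log2 ratio was 1.09 for the 10 genes and 0.04 for all tested genes. Without the deepest LOS cell 4 of the 10 genes were past 2-fold, and these were Tgfb2, Tgfbr3, Smad7 and Tgfbi.

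Between MOS and UOS, which share a region label, 3 genes were past 2-fold higher (Tgfb2, Tgfb3 and Tgfbr3) and 3 lower (Tgfbr1, Tgfbr2 and Smad7). Smad7 had 4 counts in MOS, and its ratio from thinned counts was −0.67. Of 11114 genes tested, 6.56% were past 2-fold higher and 23.2% lower. The median was −0.40 for the 10 genes and −0.31 for all. Tgfb2, at percentile 100 of the ratios tested, and Tgfb3, at 99.4, lay at the upper end, and Tgfbr2 lay at percentile 1.9.

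Between the CatVI plates together and UOS, 5 genes were past 2-fold higher (Tgfb1, Tgfb2, Tgfb3, Smad2 and Smad3) and 1 lower (Tgfbi), where 12.9% of 11497 genes were higher and 24.9% lower. With UOS and MOS together as the reference, the CatVI ratio was 0.09 for Tgfb2 and 0.87 for Tgfb3, both within 2-fold. Against UOS the median was 0.70 for the 10 genes and −0.18 for all. Plates 1 and 2 share a label and stage, and their ratio shows how far such plates differed. Of the 6 genes with 100 counts over both, 3 were past 2-fold between these plates (Tgfb3 and Tgfbr2 higher and Tgfbi lower on plate 1), and the median size over the 6 was 1.04. Among 3791 genes 32.5% were higher and 12.8% lower on plate 1. Without the highest cell on each plate Tgfbr2 was at 0.33 and Tgfbi at 0.56, so that of these 3 genes only Tgfb3, then at 1.64, stayed past 2-fold, while Smad2 was then at 1.63. Without the cells richer in markers of other cell types, Tgfb3 was at 2.84 (1.44 to 4.75) and Tgfbi at −2.08 (−2.43 to −1.73). Tgfbr2 was then at 0.87, with fewer than 100 counts. The CatVI ratios to UOS were 1.09 for Tgfb1, 1.21 for Smad2, 1.60 for Smad3 and 1.46 for Tgfb3. Between plates 1 and 2 the same genes were at −0.73 (with fewer than 100 counts), 0.96, −0.06 and 2.31. With every cell, of these genes only Tgfb3 had a larger ratio between the plates than to UOS.

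Between OSalive and UOS, 3 genes were past 2-fold higher (Tgfb2, Tgfb3 and Smad7) and 1 lower (Tgfbr1), where 11.5% of 14159 genes were higher and 26.6% lower. The median was 0.16 for the 10 genes and −0.32 for all. Here the scaling mattered. With the trimmed mean of M-values (TMM), the median of all genes was 0.16 and the share of higher among genes past 2-fold was 53.3% in place of 30.2%. Under TMM the ratio of Tgfb1 was 1.24 in place of 0.76, and that of Tgfbr1 was −0.89 in place of −1.38.

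Between OSapop and OSalive, 0 of the 10 genes were past 2-fold, where 10.6% of 13886 genes were higher and 11.3% lower. Without the highest cell of the gene in each group Tgfb3 was lower in OSapop past 2-fold, at −1.05 in place of −0.16. The median was 0.17 for the 10 genes and 0.12 for all. The ratios ran from −0.34 for Smad7 (−0.48 to −0.20) to 0.98 for Tgfbr1 (0.89 to 1.07). Tgfb2 had 0.69 (0.62 to 0.76) and Tgfbi 0.27 (0.25 to 0.30). The median size of the ratio was 0.28 for the 10 genes and 0.45 for all.

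**Figure D4:**
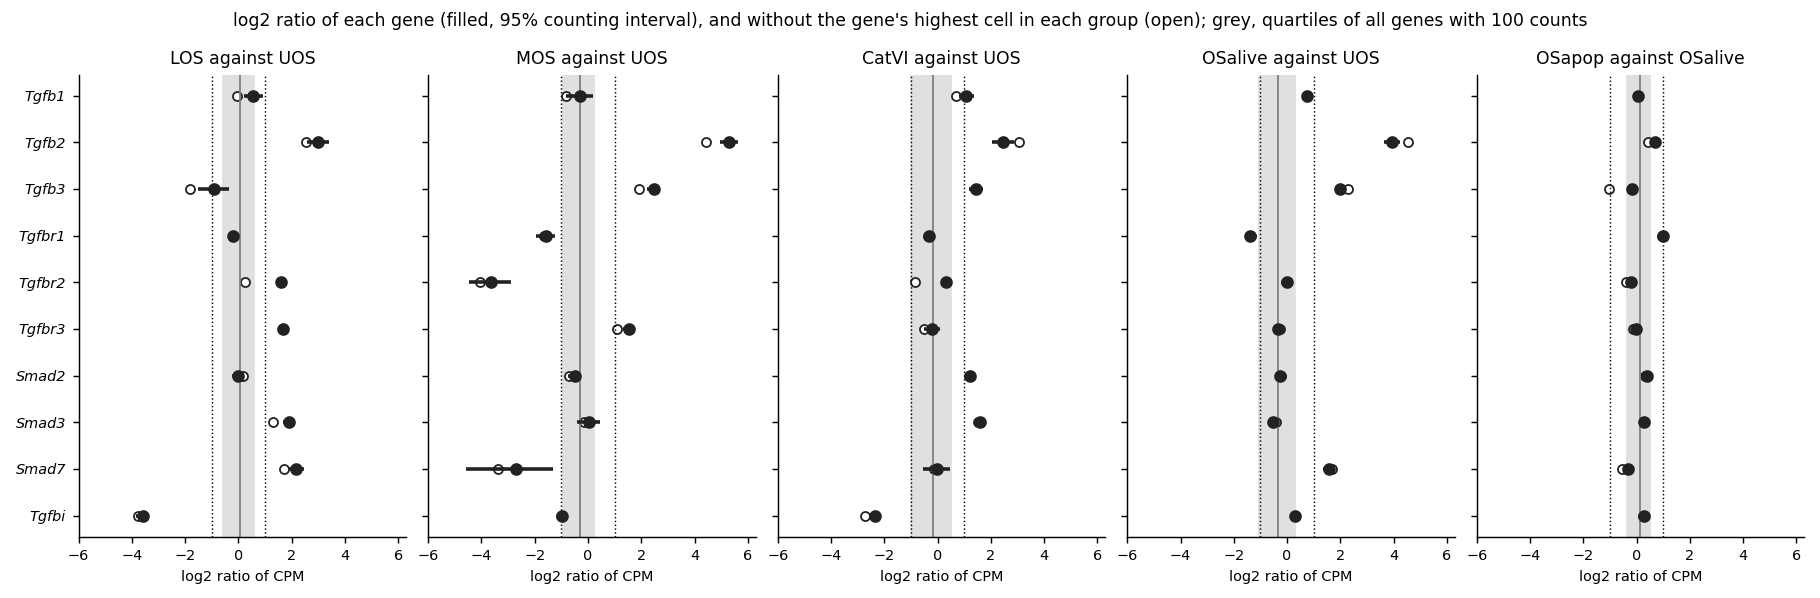
log2 ratio of CPM of the 10 genes in 5 comparisons, with the exact 95% binomial interval (filled points) and without the gene's highest cell in each group (open points). Grey bands span the quartiles of all tested genes with their median as a line, and dotted lines mark 2-fold. The open and filled points of Tgfbr2 in LOS lie apart, at 0.25 and 1.61, and all 10 filled points of OSapop against OSalive lie inside the dotted lines.

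Within CatVI, the apop plate 5 was compared with the alive plates 1 and 2, all Phago. Of 8 genes with enough counts, 0 were past 2-fold higher and 5 lower: Tgfb3 (−2.0), Tgfbr1 (−1.29), Tgfbr2 (−2.83), Tgfbr3 (−2.15) and Tgfbi (−1.76). The median of the 8 was −1.52, against −0.19 for the 5260 genes tested, of which 10.8% were higher and 22% lower. Without the cells richer in markers of other cell types, Tgfbr2 was at −0.94 (−1.62 to −0.31) and Tgfbr3 at −0.22 (−1.37 to 0.87), neither past 2-fold. All 28 Tgfbr2 counts of plate 5 were in 1 cell. Smad7 had 27 counts on plate 5 against 5 on plates 1 and 2, too few for the count minimum, with a log2 ratio of 3.22 (1.82 to 4.95). With 1 apop plate of 15 kept cells, a difference of plates cannot be told apart from one of apop and alive cells.

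Among 14 genes listed for storage and activation of the ligand or for related proteins, Ltbp1, Ltbp4 and Itgb6 were lower in CatVI than in UOS. The counts of this and the next lists stand beside the shares of all tested genes, which were 14.1% higher and 14.3% lower in LOS, 6.56% and 23.2% in MOS, 12.9% and 24.9% in CatVI and 11.5% and 26.6% in OSalive. The medians of all tested genes were 0.04, −0.31, −0.18 and −0.32. Against UOS, 2 were past 2-fold higher and 5 lower of 13 tested in LOS, 1 and 2 of 12 in MOS, 1 and 5 of 12 in CatVI and 2 and 3 of 13 in OSalive, with medians of −0.52, −0.11, −0.73 and −0.26. Ltbp1, which binds latent TGFβ to the matrix, was at 40.4 CPM in UOS, 5.69 CPM in LOS and 12.1 CPM in MOS. In CatVI it was at 4.76 CPM, a log2 ratio of −3.09 (−3.46 to −2.74). Ltbp4, of the same family, was at 750 CPM in UOS, 329.6 CPM in LOS, 284.4 CPM in CatVI and 339 CPM in OSalive.

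Itgb6 and Itgb8 encode integrin subunits that release active ligand. Itgb6 was at 26 CPM in UOS and 5.32 CPM in LOS, had 0 counts on the 4 CatVI plates and was at 13.7 CPM in OSalive. Itgb8 was at 42.7 CPM in UOS and 6.07 CPM in LOS. Ltbp2, which resembles these proteins but does not bind latent TGFβ, was at 95.5 CPM in OSalive against 20.8 CPM in UOS, a log2 ratio of 2.20 (2.12 to 2.28). Lrrc32, which holds latent ligand at the cell surface, was at 38.6 CPM in LOS against 0.82 CPM in UOS. LOS was also the sort with the highest endothelial markers, and which cells carried Lrrc32 was not tested. Fst, an activin inhibitor, was at 56.2 CPM in MOS against 11.9 CPM in UOS.

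Of 7 genes for co-receptors and receptor partners, 3 were past 2-fold higher and 1 lower in LOS, 2 and 2 in MOS, 1 and 1 in CatVI and 1 and 2 in OSalive, all against UOS. Over all genes the lower share was 23.2% in MOS and 26.6% in OSalive, near 2 of 7 genes. Eng, an accessory receptor abundant in endothelium, was at 61.1 CPM in LOS against 3.35 CPM in UOS, in the sort whose endothelial markers were highest. Cd109, a surface protein known to dampen TGFβ signalling in keratinocytes, was at 27.7 CPM in UOS, 134.9 CPM in MOS, 97.3 CPM in CatVI and 67.9 CPM in OSalive, and at 13.6 CPM in LOS.

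Of 15 transducers and brakes, 0 of 14 tested were past 2-fold in LOS, and 1 was higher and 3 lower of 14 in MOS. In CatVI 3 of 15 were higher and 0 lower, and in OSalive 0 of 14 were higher and 1 lower. The MOS counts are near the 6.56% and 23.2% of all genes. Skil, a repressor of SMAD activity, had a CatVI ratio of 1.0 (0.84 to 1.16), and Nedd4l, a ubiquitin ligase acting on SMADs, one of 1.29 (1.08 to 1.5).

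Of 19 genes known as targets in epithelial cells, 3 were past 2-fold higher and 3 lower of 17 tested in LOS, 1 and 7 of 17 in MOS, 1 and 8 of 17 in CatVI and 4 and 5 of 18 in OSalive, with medians of −0.22, −0.65, −0.39 and −0.35. Of all genes 23.2% were lower in MOS, 24.9% in CatVI and 26.6% in OSalive. Fn1, the gene of fibronectin, was at 217.2 CPM in LOS, the sort with the highest fibroblast markers. It was at 5.03 CPM in MOS and 45.2 CPM in UOS, and on plates 1, 2, 5 and 6 at 189.6, 112.6, 3.11 and 165.8 CPM. Ccn2, a matricellular gene, was at 23.4 CPM in UOS and 0.14 CPM over CatVI, and at 92.5 CPM in OSalive. Col4a1, a basement membrane collagen, was at 112.3 CPM in UOS and at 25.3 CPM in CatVI and 35 CPM in OSalive. Between OSapop and OSalive, 0 of these 19 were higher and 2 of 16 tested were lower, among them Fn1 at 18.6 CPM against 67.9 CPM.

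The genes whose levels over the 9 sorts and plates were most like those of a member, by Pearson r of log2(CPM + 1) among 9256 genes, are given as a description of 9 points that share depth and sort. They were Mfn2 (0.88) for Tgfb2, Urgcp (0.95) for Tgfbr2, Notch3 (0.95) for Smad3, and Tnip2 (0.98) and Col7a1 (0.95), a basement membrane collagen, for Tgfbi. Among the 10 genes themselves, r over these 9 points was 0.63 for Tgfb2 with Tgfb3, 0.61 for Tgfbr1 with Tgfbr2, 0.60 for Smad2 with Smad3 and −0.91 for Smad3 with Tgfbi, the pair farthest from 0.

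The libraries were not stranded, so reads of a gene and of a gene on the opposite strand cannot be told apart where exons overlap. In the GENCODE annotation exons of Tgfb2 overlap the lncRNA Gm29491, and those of Tgfb3 overlap Ttll5, Gm37804 and Gm48008. Those of Tgfbr1 overlap Gm32435, which was not among the counted genes, and those of Tgfbr2 overlap Gm4668. All of these lie on the opposite strand. Exons of Tgfbr3 overlap Gm43422 on the same strand.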

How the data were processed

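Single cells were sorted from pooled wild-type mouse skin and made into Smart-seq2 libraries. The authors trimmed and aligned the reads (STAR 2.6, mm39), quantified transcripts with Salmon 1.4.0 and deposited estimated counts, summed per gene with tximport and neither filtered nor normalised. A second deposited file holds labels of cells and was not used.

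Of the estimated counts, 0.471% were not whole, and all were rounded. Cells were grouped by their labels. Of 1036 cells with counts, 1 with conflicting stage labels was left out, and 1 labelled cell without a column of counts was not analysed here. In all, 0 columns of counts went unused. Wells with a shared label occurred (161 labels in 2 cells each), with 0 identical kept cells. Cells with fewer than 2000 detected genes were left out, and no doublet caller was run, since each cell was sorted into a well. Counts were summed per sort or plate, and CPM was taken over all genes without the 92 spike-ins. Depth ran from 1840012 to 287377663 counts per sort. Symbols came from the GENCODE annotation, in which 93.3% of the gene identifiers were found.

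Intervals are exact 95% Poisson (levels) and binomial (ratios, shares) intervals. The code for ratios was run on simulated Poisson counts for OSalive against UOS over 14159 genes, the model that the intervals assume. There 200 changed genes had the right sign in 100% and the interval held the set ratio in 98%. Such counts carry no spread between cells and no amplification, so the run could only check the code. All 10 members are described. From pathway lists, genes were named at 2-fold or more with 100 counts over both groups and 20 CPM in the higher, at most 4 each way. Genes most like a member are among its 3 highest by Pearson r. Members and lists were chosen with earlier results of these data known. Alternatives were CPM over genes with a symbol, median-of-ratios and TMM factors, the mean of CPM per cell, minimums of 1000 or 3000 genes, thinning to 50000 counts, no count minimum, no rounding, each plate left out, alive plates only, and MOS, or UOS with MOS, as reference. Chosen after seeing the data were leaving out the highest cell of the gene, the deepest LOS cell, the UOS cell with the most genes, and cells richer in markers of other cell types or of the inner root sheath and matrix. Python 3.11.15, numpy 2.4.6, pandas 2.3.3, scipy 1.17.1, R 4.3.3 and edgeR 4.0.16 (for TMM only) were used.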

Additional observations from a re-analysis of the deposited data

Results flagged for a closer look

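The ratios of apop to alive cells had opposite signs at the 2 catagen stages for Tgfbr1 and Tgfbi, although at CatVII neither was past 2-fold. For Tgfbr1 the log2 ratio of apop to alive was −1.29 at CatVI, for plate 5 against plates 1 and 2 (all Phago), and 0.98 at CatVII, for OSapop against OSalive. For Tgfbi the ratios were −1.76 and 0.27, and the latter was 0.08 with TMM. The median of all tested genes at CatVII was 0.12. The difference between the stages was not tested, because each sort is 1 sample. Plate 5 held 15 kept cells, and 1 of these held 80% of its Tgfbr1 counts. The CatVI cells were sorted as Phago and the CatVII cells were not, so stage, plate and sort cannot be told apart.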

How the results depend on the processing

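Each sort or plate is 1 sample, so leaving out a biological replicate was not possible for LOS, MOS, UOS, OSalive or OSapop. No paired analysis was possible because no test was made. Of the 10 genes, 6, 6, 6, 4 and 0 were past 2-fold in LOS, MOS, CatVI and OSalive against UOS and in OSapop against OSalive. Over all the alternatives these counts ran from 3 to 7, 3 to 7, 2 to 7, 3 to 6 and 0 to 1. The low ends for LOS, MOS and CatVI, at 3, 3 and 2, came with cells thinned to 50000 counts, where by construction 5 genes in each kept 100 counts, and for OSapop against OSalive 1 of 7 was then past 2-fold. Without the highest cell of the gene in each group, OSapop against OSalive also had 1, Tgfb3 at −1.05. With MOS in place of UOS as the reference, OSalive ratios turned for Tgfb2 (−1.35), Tgfb3 (−0.48) and Tgfbr1 (0.21). Without plate 1, the CatVI ratios of Tgfbr2 and Tgfbr3 were −1.32 and −1.19. With UOS and MOS together as the reference, the CatVI ratios of Tgfb2 and Tgfb3 were 0.09 and 0.87.

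Scaling moved whole comparisons. With TMM the median log2 ratio of all tested genes went from −0.32 to 0.16 in OSalive and from −0.31 to −0.17 in MOS, and it was −0.11 in MOS with median-of-ratios factors. The share of higher among genes past 2-fold went from 22.1% to 33.2% in MOS and from 34.2% to 44.8% in CatVI with median-of-ratios factors, was 29.6% in MOS with TMM, and went from 48.5% to 36.2% in OSapop against OSalive with TMM. The cause of these shifts was not tested.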

Other observations

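Plates 3 and 4, sorted as NonPhago and alive at CatVI, entered no comparison. Their 67 and 57 cells held 1104 and 27556 counts in all, with 0 counts of each of the 10 genes.

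Counted per cell after thinning to 50000 counts, at least 1 of the 3 ligand genes was seen in 39.1% of 23 LOS cells, 40.6% of 32 MOS cells, 25.2% of the UOS cells, 40.3% of the OSalive cells and 41.2% of 85 OSapop cells. On the CatVI plates it was 12 of 18 cells on plate 1, 4 of 8 on plate 2, 2 of 15 on plate 5 and 2 of 12 on plate 6. The median cell held a count of 3 of the 10 genes in MOS, UOS, OSalive and OSapop, and of 4 in LOS. Counts of all 3 ligand genes together were found, without thinning, in 4 cells of MOS, 3 of UOS, 11 of OSalive, 6 of OSapop and 0 of LOS.

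The cells below the minimum of 2000 detected genes held few counts of the members. The 54 such cells of LOS summed to 194886 counts, of which 18 were of Tgfbi, 92.4 CPM (54.7 to 145.97, exact 95% Poisson interval), above the 12.7 CPM of the kept LOS cells. This was not particular to LOS. Tgfbi in such cells was at 244.4 CPM in MOS, 337.6 CPM in UOS, 398.1 CPM in OSalive and 317.8 CPM in OSapop. The kept cells of these sorts had 77.5, 154.04, 191.5 and 231.6 CPM. On plate 1 it was 67.5 against 31.4 CPM, and on plates 2, 5 and 6 such cells had 0 counts of Tgfbi.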
